A study of Mus musculus with 4 samples.

Results

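Of 9 genes of the complement system, chosen by name, 8 had a probe set that the platform annotation maps to 1 symbol: the C1q chains C1qa, C1qb and C1qc, the alternative pathway genes Cfb and Cfp, the regulator C4bp, and the receptors C3ar1 and C5ar1. C3, the central component, had no such probe set and was not analysed here. All 8 measured genes, each with 1 probe set, were among the 11292 of 18820 genes whose mean log2 intensity was at least 5.45. C4bp reached that level through 1 array: without the array of wild type mice on the low-fat diet its mean was 5.27.

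The complement system is a cascade of plasma and tissue proteins that tags particles for uptake, attracts leukocytes and can lyse cells. It starts through the classical pathway (C1q bound to antibodies, dying cells or microbes), the lectin pathway or the alternative pathway, and its small cleavage products act on receptors of myeloid cells. The liver makes most circulating components, whereas C1q comes largely from macrophages, and adipose tissue makes several alternative pathway proteins itself.

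The tissue was epididymal fat of C57BL/6 mice, and RNA of 4 to 6 animals was pooled for each array. Wild type mice ate either a low-fat diet (10 kcal% fat, 1 array, WT-LF) or a high-fat diet (45 kcal% fat, 1 array, WT-HF). Mice with the CD1d-/- genotype, which lack the molecule that presents lipids to natural killer T cells, ate the low-fat diet (2 arrays, KO1 and KO2) after 10 to 12 generations of backcrossing to C57BL/6J. Feeding began at 10 to 11 weeks of age and lasted 18 to 19 weeks in all groups.

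All levels below are log2 of the array intensity, and a difference is in log2 units unless it is given as a fold. Median intensities of the arrays lay between 51.1 and 52.2. Cd1d1, the disrupted gene, was at 11.80 on both wild type arrays and at 3.74 and 3.98 on the KO arrays, so the KO mean lay −7.95 from WT-LF (SE 0.32, limma adjusted p = 0.00646). All 8 adipocyte markers lay above the gene median of each array. The labels do not state whether the KO arrays came from separate pools, so p-values measure the spread between these arrays, which may be technical. KO1 was low across the tested genes but not over all probe sets, where its median intensity, 52.2, was the highest of the 4 arrays. Over the 11292 tested genes the median of KO1 minus WT-LF was −0.17, against −0.023 for KO2 and 0.054 for WT-HF. Values for single genes are given as measured, and where that shift matters they are also given relative to it.

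The 8 genes fell into 2 patterns. C1qa, C1qb, C1qc, Cfb, Cfp, C3ar1 and C5ar1 were lowest on KO1, next on WT-LF, and highest on the WT-HF array and KO2. C4bp was high on the WT-LF array alone. In whole tissue, fewer cells of a type and less RNA per cell cannot be told apart. In 6 of the 7 genes of the first pattern the WT-HF array was the highest, and in Cfb it was KO2. Among all tested genes, the order shared by those 6 genes was met in 26.3%, the order of Cfb in 8.53% and the order of C4bp in 1.36%. Because C4bp was tested through its high value on WT-LF, an order with that array highest was favoured for it.

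**Figure D1:**
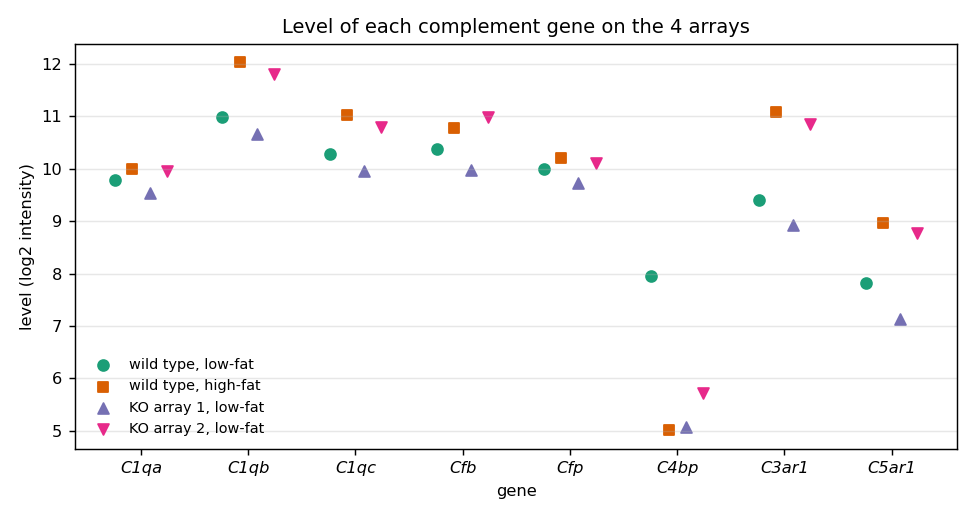
Log2 intensity (vertical axis) of the 8 measured complement genes (horizontal axis), with 1 point for each of the 4 arrays. In C1qa to Cfp, C3ar1 and C5ar1 the square (WT-HF) and the downward triangle (KO2) lie above the circle (WT-LF) and the upward triangle (KO1), while C4bp is at 7.96 on the WT-LF array and between 5.01 and 5.73 on the others.

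C1q is the recognition protein of the classical pathway, built from 3 chains with a collagen-like stalk and a globular head. In RefSeq the chain genes follow each other on chromosome 4 in the order C1qb, C1qc, C1qa, with no protein-coding gene between them. C1qb (probe set 10517508) was at 10.99 on WT-LF, 12.03 on WT-HF, 10.66 on KO1 and 11.81 on KO2. C1qc (10517513) was at 10.28, 11.02, 9.95 and 10.79 on the same arrays. C1qa (10517517) was at 9.79, 10.00, 9.54 and 9.95. The 3 chains thus had 1 order of arrays but different spans. The high-fat array stood 2.05-fold above the low-fat array for C1qb, 1.66-fold for C1qc and 1.15-fold for C1qa, and KO2 stood 2.23-fold, 1.79-fold and 1.34-fold above KO1.

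The start-site windows of C1qb and C1qc are shown because these neighbours had similar patterns, and the windows hold letters of the purine-rich sequence that PU.1, an ETS-family transcription factor of macrophages, is known to bind. Each is 300 bases long, from 250 before to 50 after the RefSeq start site in GRCm38.p6, written on the gene's strand. The C1qb window is chr4:136886151-136886450 and that of C1qc is chr4:136892865-136893164, both on the minus strand. Capitals mark GAGGAA or AGGAAG on either strand, so CTTCCT and TTCCTC are the same motifs read from the other strand, and a run such as GAGGAAG holds both.
C1qb: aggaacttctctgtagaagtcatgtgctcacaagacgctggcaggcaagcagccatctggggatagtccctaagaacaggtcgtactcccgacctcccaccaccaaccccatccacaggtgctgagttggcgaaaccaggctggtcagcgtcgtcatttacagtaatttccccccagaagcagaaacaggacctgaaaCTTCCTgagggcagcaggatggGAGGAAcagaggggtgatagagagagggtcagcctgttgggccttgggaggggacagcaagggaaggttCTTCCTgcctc
C1qc: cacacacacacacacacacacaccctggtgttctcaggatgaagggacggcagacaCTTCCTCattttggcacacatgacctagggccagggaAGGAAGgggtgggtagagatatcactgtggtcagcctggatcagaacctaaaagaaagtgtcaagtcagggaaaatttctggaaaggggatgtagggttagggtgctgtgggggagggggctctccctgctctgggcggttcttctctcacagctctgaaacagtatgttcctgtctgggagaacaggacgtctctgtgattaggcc
GAGGAA was in 28.3% and AGGAAG in 35.4% of all 32851 windows of this length, and at least 1 of them in 46.0%. They were in 5 of the 7 listed genes with a window (C1qb, C1qc, Cfp, C3ar1 and C5ar1). In C1qb a GAGGAA ends 25 bases before the start site. A match is a description of the letters and not a bound site, and the motifs were picked after the windows had been read.

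The receptors had the widest spans of the genes in the first pattern. C3ar1 encodes the receptor for C3a, a small fragment released from C3, and C5ar1 the receptor for C5a, which attracts and activates neutrophils and macrophages. C3ar1 (probe set 10547657) was at 9.41 on WT-LF, 11.09 on WT-HF, 8.93 on KO1 and 10.85 on KO2. C5ar1 (10560242) was at 7.83, 8.97, 7.13 and 8.77. For both genes the high values on the WT-HF array and KO2 were close together, and the KO arrays spanned the wild type low-fat value. C3ar1 was 3.21-fold higher on the high-fat than on the low-fat array and 3.78-fold higher on KO2 than on KO1. The matching folds of C5ar1 were 2.21 and 3.11. Their windows, chr6:122856108-122856407 for C3ar1 and chr7:16259289-16259588 for C5ar1, both on the minus strand, are shown for comparison with C1qb and C1qc, with the same capitals.
C3ar1: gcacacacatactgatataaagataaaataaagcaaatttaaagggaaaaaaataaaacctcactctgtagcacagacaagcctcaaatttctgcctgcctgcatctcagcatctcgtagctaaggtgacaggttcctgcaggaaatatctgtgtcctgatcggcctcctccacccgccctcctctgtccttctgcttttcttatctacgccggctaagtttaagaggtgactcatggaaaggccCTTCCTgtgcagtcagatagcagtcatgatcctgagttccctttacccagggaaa
C5ar1: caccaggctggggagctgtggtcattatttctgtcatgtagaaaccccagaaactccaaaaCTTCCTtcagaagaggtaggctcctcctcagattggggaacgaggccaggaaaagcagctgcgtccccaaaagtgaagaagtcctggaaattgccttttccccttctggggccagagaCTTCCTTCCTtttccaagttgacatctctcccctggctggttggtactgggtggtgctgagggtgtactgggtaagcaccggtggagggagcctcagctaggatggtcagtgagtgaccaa
C5ar1 holds AGGAAG at 3 positions and C3ar1 at 1, which spans the start site.

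Cfb encodes factor B, the protease that forms the C3 convertase of the alternative pathway, and Cfp encodes properdin, which stabilises that convertase and is made by myeloid cells. Cfb (probe set 10450325) was at 10.38 on WT-LF, 10.78 on WT-HF, 9.98 on KO1 and 10.98 on KO2. Cfp (10603860) was at 9.99, 10.20, 9.73 and 10.12. Cfb stood 1.31-fold above the low-fat array on the high-fat array and 2-fold above KO1 on KO2, so its span within the KO pair was the wider one. Cfp spanned less than 1.5-fold in either pair, at 1.16-fold and 1.31-fold, close to C1qa.

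The diet comparison in wild type fat asks what a high-fat diet does to these genes, and with 1 array per diet it has no replicate check and no test. At 1.5-fold or more, 4 of 8 genes were higher on WT-HF, C1qb, C1qc, C3ar1 and C5ar1, against 7.72% of all tested genes. C4bp was the 1 gene lower, against 3.82% of all tested genes. As it passed the filter on low values through WT-LF, a lower call was favoured for it. Over the 8 genes the median difference was 0.56, with 7 above 0, and over all tested genes it was 0.054, with 58.2% above 0. Leaving C4bp aside, differences ran from 0.21 in C1qa to 1.68 in C3ar1. Since the genes were listed with results of these arrays known, the gap between these shares was not tested.

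**Figure D2:**
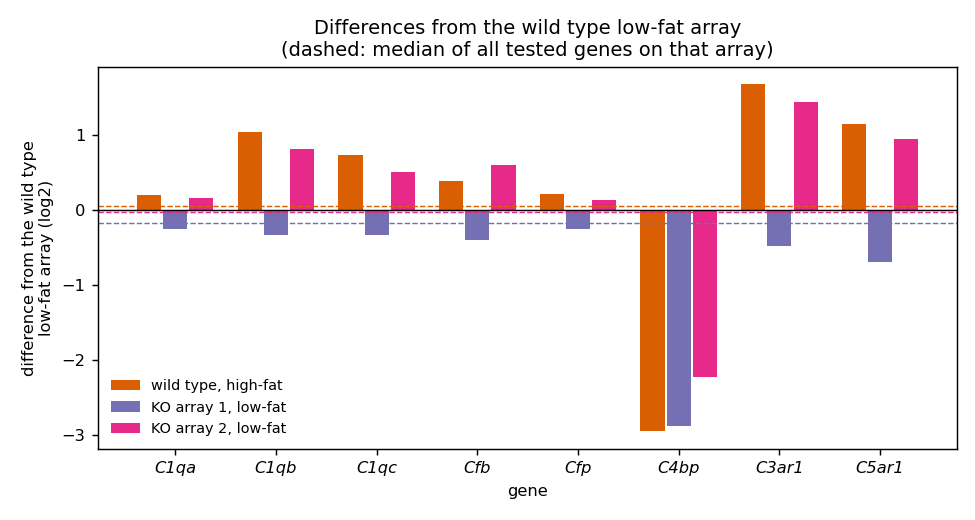
Difference in log2 intensity from the WT-LF array (vertical axis) for each gene (horizontal axis) on the WT-HF array and the KO arrays, with the median of all tested genes on each array as a dashed line. C3ar1 reaches 1.68 on the WT-HF array and 1.44 on KO2 but −0.48 on KO1, and the 3 bars of C4bp lie between −2.95 and −2.23.

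The KO arrays, of 1 genotype and 1 diet, differed from each other by more than the wild type arrays did for the measured genes other than C4bp. How many of all tested genes did so was not counted, but the KO pair was further apart over all of them too. In the KO pair 14.8% were at least 1.5-fold higher and 4.45% lower, against 7.72% and 3.82% between the diets. The median over all tested genes was 0.14 in the KO pair and 0.054 between the diets. Relative to those medians C1qb was at 1.01 in the KO pair and 0.98 between the diets, and C1qc at 0.69 and 0.68. The gap stayed wider in Cfb, at 0.86 and 0.34, and in C5ar1, at 1.49 and 1.09. KO2 was at least 1.5-fold above KO1 for 6 of 8 genes, namely C1qb, C1qc, Cfb, C4bp, C3ar1 and C5ar1, against 14.8% of all tested genes. None was as much lower, against 4.45%. The median difference was 0.92 over the 8 genes and 0.14 over all tested genes. After centring of each array on its median 5 genes remained past 1.5-fold, with C4bp at 0.56. Most markers of macrophages moved with these values. All 12 had a probe set and 0 were listed at 0. On KO2, 9 were at least 1.5-fold above KO1, against 14.8% of all tested genes. On WT-HF, 7 were as much above WT-LF, against 7.72%, with 11 of 12 above 0. Cd163 went the other way, at −0.22 between the diets and −0.051 within the KO pair. The order shared by 6 of the complement genes was met in 9 of the 12, against 26.3% of all tested genes. The summed intensity of the 12 markers was 9916 on WT-LF, 17762 on WT-HF, 8116 on KO1 and 16354 on KO2. Of 7 fibroblast and progenitor markers 2 were at least 1.5-fold higher on KO2 than on KO1, and their summed intensity was 15801 on WT-LF, 17235 on WT-HF, 12641 on KO1 and 16632 on KO2. Smooth muscle markers went the other way: 4 of 5 were at least 1.5-fold lower on KO2 than on KO1, with summed intensities of 4349 on WT-LF, 4517 on WT-HF, 8488 on KO1 and 4262 on KO2. Between the diets 2 of the 5 were at least 1.5-fold lower on WT-HF, with a median of −0.40. Of 8 mesothelial markers, 5 were at least 1.5-fold higher on KO2 than on KO1 and 2 lower, with a median of 1.05, and their summed intensity was 2469 on WT-LF, 1959 on WT-HF, 1889 on KO1 and 2289 on KO2. The part of macrophages, fibroblasts, mesothelium and smooth muscle in the complement values was not tested.

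Set beside those markers, the complement genes differed in span. The median difference of the macrophage list was 0.70 between the diets and 0.94 within the KO pair. C1qc, at 0.73 and 0.84, lay near those medians and C1qb, at 1.04 and 1.16, above them. C3ar1, at 1.68 and 1.92, exceeded all 12 markers in both, and C5ar1, at 1.14 and 1.64, exceeded 9 and 10 of them. C1qa and Cfp lay low, above 3 of 12 markers between the diets and 2 of 12 within the KO pair. Cfb exceeded 4 of 12 between the diets and 7 of 12 within the KO pair. These are positions on different probe sets, whose response to a given change may differ.

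**Figure D3:**
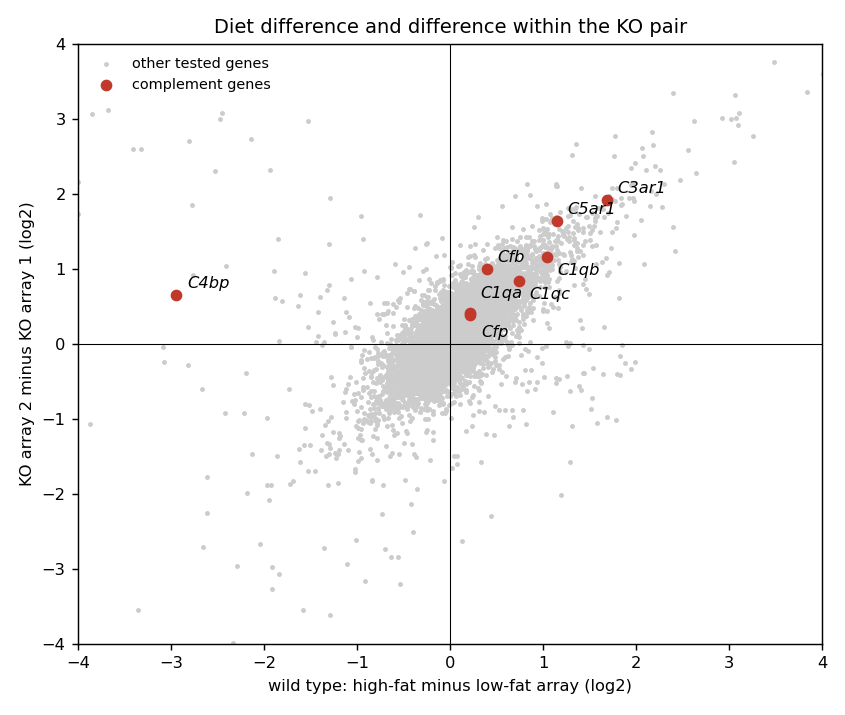
Each point is a tested gene, with its difference between the wild type arrays (high-fat minus low-fat, log2, horizontal axis) and within the KO pair (array 2 minus array 1, log2, vertical axis), and 31 genes lie outside the axes, which end at 4. The complement genes are in red: 7 lie in the upper right, from C1qa and Cfp near the centre to C3ar1, and C4bp lies at −2.95 and 0.65.

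These pairs share no array. Over all 11292 tested genes, which are not independent replicates and were normalized together, Pearson's r between the paired differences was 0.517. KO2 lay near the WT-HF array for the genes of the first pattern: the differences between them ran from −0.24 in C3ar1 to 0.21 in Cfb. The median of KO2 minus WT-HF was −0.085 over all tested genes, with 28.0% above 0, and −0.14 over the 8 complement genes, with 2 above 0. A signed median does not show how near single genes lay, and the spread over all tested genes was not measured. KO1 lay below the WT-HF array for the same 7 genes, by −0.46 in C1qa to −2.16 in C3ar1. Most tested genes did so too: the median over all of them was −0.23, with 28.7% above 0. Relative to that median the 7 genes ran from −0.23 in C1qa to −1.93 in C3ar1.

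The genotype comparison on the low-fat diet asks whether fat without CD1d differs from wild type fat in these genes. In limma, 0 of the 8 genes passed an adjusted p of 0.05, where 5 of 11292 genes, or 0.0443%, did. At an unadjusted p under 0.05 there was 1 of the 8, C4bp, and 92 of the 11292 tested genes. Because C4bp passed the filter on low values through WT-LF, a small p against that array was favoured for it. For C3ar1 the KO mean was 9.89 ± 1.36 (SD, n = 2) against 9.41 on the wild type array, a difference of 0.48 with a standard error of 0.76. C5ar1 differed by 0.12 with a standard error of 0.67, C1qb by 0.24 (0.52), C1qc by 0.086 (0.43) and Cfb by 0.097 (0.48), and limma gave all 5 an adjusted p = 1. C1qa, at −0.044, and Cfp, at −0.063, changed sign to 0.071 and 0.051 when the arrays were centred on their medians. In all 7 genes the KO arrays lay on either side of the wild type low-fat value, so direction depended on which KO array was read. Of all tested genes, 22.4% were above that value on KO1 and 46.8% on KO2, and the share with KO arrays on either side was not counted. On KO1 alone the differences were −0.25 for C1qa, −0.34 for C1qb, −0.33 for C1qc, −0.40 for Cfb, −0.26 for Cfp, −0.48 for C3ar1 and −0.70 for C5ar1. Relative to all tested genes of that array they shrank to between −0.078 in C1qa and −0.52 in C5ar1.

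By size, 0 of 8 genes were at least 1.5-fold higher on both KO arrays, against 0.584% of all tested genes, and C4bp was lower on both, against 0.77%. Since C4bp passed the filter on low values through WT-LF, lower calls against that array were favoured for it. Its calls beside these shares are a description. KO2 alone would give 4 higher, against 5.54% of all tested genes, and 1 lower, against 4.6%. KO1 alone would give 0 higher, against 1.93%, and 2 lower, C4bp and C5ar1, against 5.02%.

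Against the WT-HF array, from which the KO arrays differ in genotype and in diet, limma placed 0 of the 8 genes past the threshold, and 1 of 11292 genes, or 0.00886%. At an unadjusted p under 0.05 there were 0 of the 8 and 127 in all. This comparison shares the KO arrays with the one before. The difference was −1.20 for C3ar1 with a standard error of 0.76 and −1.02 for C5ar1 with a standard error of 0.67, both with an adjusted p = 0.999 in limma.

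C4bp encodes the alpha chain of C4b-binding protein, a plasma inhibitor that binds C4b and helps factor I to cut it, and is known mainly as a liver product. C4bp (probe set 10357516) was at 7.96 on WT-LF, 5.01 on WT-HF, 5.07 on KO1 and 5.73 on KO2. The WT-LF array was high and the others did not reach it. It stood 7.72-fold above the WT-HF array, and 7.38-fold and 4.69-fold above KO1 and KO2. The low values lay at percentiles 34.5, 34.0 and 43.5 of gene levels on their arrays, below the gene median, and the folds may understate the gap. The KO mean, 5.40 ± 0.46 (SD, n = 2), lay −2.56 from WT-LF (SE 0.39), with a limma adjusted p = 0.966. Under the alternatives run its adjusted p was between 0.558 and 1. Against the WT-HF array the KO mean differed by 0.39 (SE 0.39).

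Some markers of the epididymis, the duct beside this fat pad, were high on WT-LF as C4bp was. Of 14 listed, 11 had a probe set, 5 were tested, 0 were listed at 0, and their summed intensity was 6503 on WT-LF, 177 on WT-HF, 187 on KO1 and 716 on KO2. The array order of C4bp was met in 5 of the 11 measured markers, namely Adam7, Lcn5, Rnase9, Spag11a and Spint4, which were also the 5 tested. Like C4bp, these 5 passed the filter on low values through WT-LF, so their place among tested genes required a high value there. Of the other 6, Crisp4 was at 5.92 on WT-LF, 3.37 on WT-HF, 3.60 on KO1 and 6.03 on KO2, Pate4 was highest on WT-HF at 4.45, and Lcn8, Lcn9, Rnase10 and Gpx5 lay between 3.54 and 4.13 on all arrays. Lcn5 was at 11.34 on WT-LF, 4.32 on WT-HF, 4.89 on KO1 and 5.45 on KO2, and Spint4 at 11.35, 3.19, 3.25 and 4.43. Adam7 was nearly as high on KO2 (8.71) as on the WT-LF array (9.35), where C4bp was not. Hepatocyte markers did not follow C4bp: 7 of 7 with a probe set were at least 1.5-fold higher on WT-HF than on WT-LF. Their summed intensity was 2884 on WT-LF, 6845 on WT-HF, 3869 on KO1 and 3862 on KO2. The part of epididymal or liver-type cells in the C4bp values was not tested. The pseudogene C4bp-ps1 lay between 3.50 and 3.78 on the 4 arrays. Zp3r, the sperm protein gene next to C4bp and of the same family, lay between 3.51 and 3.93. These 2 genes were chosen after their values were seen.

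**Figure D4:**
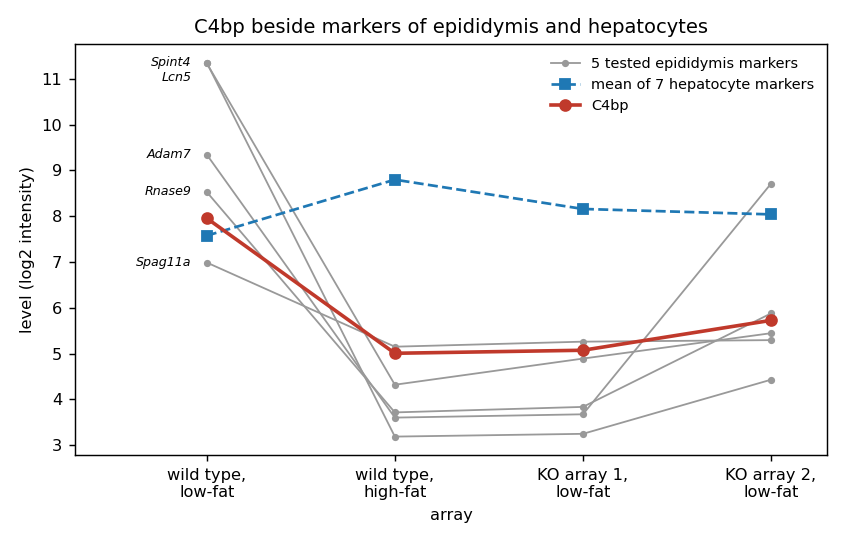
Log2 intensity (vertical axis) of C4bp, of the 5 tested epididymis markers and of the mean over 7 hepatocyte markers on each array (horizontal axis). C4bp and these 5 markers, which all passed the filter through WT-LF, are highest there, and the hepatocyte mean is highest on the WT-HF array at 8.80.

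The C4bp window, chr1:130661569-130661868 on the minus strand of GRCm38.p6, is shown because C4bp stood apart. Capitals mark GTTAAT on either strand, a half-site of the motif of HNF1, a transcription factor of liver and kidney epithelium.
C4bp: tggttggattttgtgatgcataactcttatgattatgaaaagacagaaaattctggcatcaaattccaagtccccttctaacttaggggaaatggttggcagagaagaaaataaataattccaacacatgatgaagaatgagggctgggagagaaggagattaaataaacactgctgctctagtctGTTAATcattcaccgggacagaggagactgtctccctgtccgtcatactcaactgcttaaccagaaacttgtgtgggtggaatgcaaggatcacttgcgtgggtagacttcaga
The match ends 59 bases before the start site. GTTAAT was in 7.1% of all windows of this length, among them that of Cfp. The motif was picked after the window had been read.

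The rest of the complement system was read from a list of 50 further genes in 7 roles, of which 39 had a probe set and 25 were tested. Between the diets 7 of the 25 were higher by 1.5-fold or more on WT-HF, against 7.72% of all tested genes, and 4 were lower, against 3.82%. Within the KO pair 10 were higher on KO2, against 14.8%, and 0 lower, against 4.45%. On both KO arrays 2 were lower than on WT-LF, Fcna and Susd4, against 0.77%, and 0 higher, against 0.584%. In limma 0 of the 25 passed for KO against WT-LF, with 1 at an unadjusted p under 0.05, and 0 against the WT-HF array, with 0 at an unadjusted p under 0.05. The medians over the 25 were 0.15 between the diets and 0.33 within the KO pair, beside 0.054 and 0.14 over all tested genes. Cpn1 and Susd4 passed the filter on low values through WT-LF, with means of 5.37 and 5.40 without it, so lower calls against that array were favoured for them.

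All 6 tested receptors other than C3ar1 and C5ar1 exceeded WT-LF by 1.5-fold or more on WT-HF, against 7.72% of all tested genes. All 6 exceeded KO1 by as much on KO2, against 14.8%. The array order of C3ar1 was met in 5 of the 6, against 26.3% of all tested genes. Itgax and Itgam, with Itgb2, encode complement receptors 4 and 3, integrins that bind iC3b, and Vsig4 a further C3 fragment receptor of resident macrophages. Itgax was at 6.43 on WT-LF, 9.45 on WT-HF, 5.72 on KO1 and 8.72 on KO2. Itgb2 was at 8.09, 9.66, 7.55 and 9.26, and Itgam at 8.02, 8.85, 7.30 and 8.57. Vsig4 was at 6.56, 7.41, 5.88 and 7.87, with KO2 as the highest. Cd93, once proposed as a C1q receptor, was at 9.10, 9.87, 9.05 and 9.84. C5ar2, the second C5a receptor and the RefSeq neighbour of C5ar1, was at 6.24, 6.97, 6.08 and 6.83, a narrower span than that of C5ar1, and was chosen after its values were seen.

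**Figure D5:**
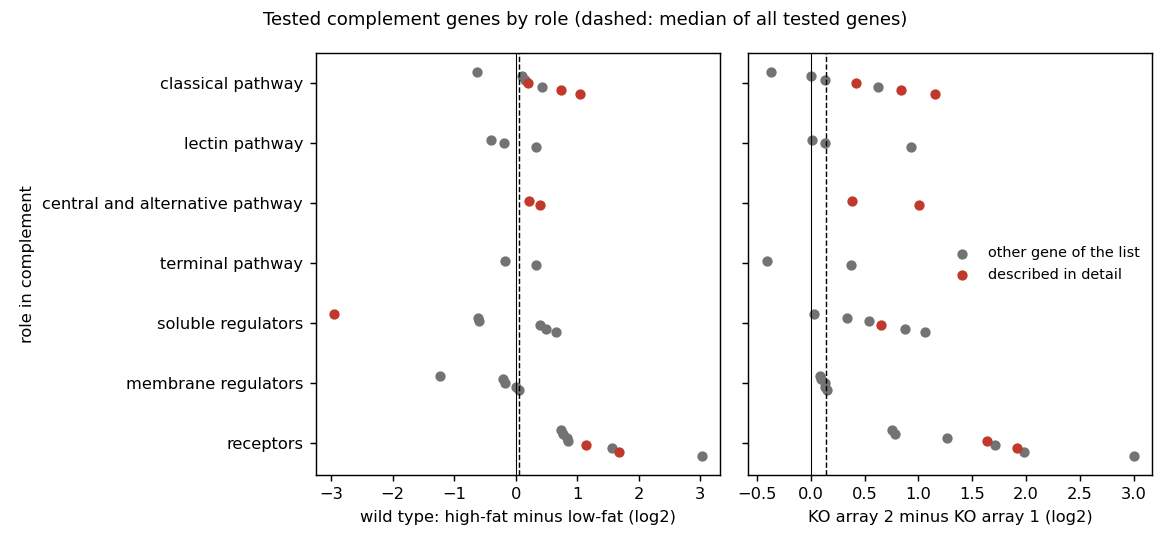
Tested complement genes by role (vertical axis), with the difference between the wild type arrays on the left and within the KO pair on the right (log2, horizontal axes), and the dashed line at the median of all tested genes. All receptors lie to the right of the line in both panels, while the membrane regulators other than Susd4 cluster around it.

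Genes listed under the classical, lectin and terminal pathways did not share 1 order of arrays. C1s1, the C1s protease of the classical pathway, was at 9.75 on WT-LF, 9.86 on WT-HF, 9.49 on KO1 and 9.63 on KO2, within 1.5-fold throughout. C2, the classical pathway counterpart of factor B and the RefSeq neighbour of Cfb, was at 9.73, 9.10, 9.35 and 8.98. Its order was nearly the reverse of that of Cfb, with the WT-LF array highest and KO2 lowest. C2 was chosen after its values were seen. In the lectin pathway Colec12, a scavenger receptor with a collectin domain, was at 8.88, 9.20, 8.25 and 9.18, and Fcna, ficolin A, was 1.5-fold or more lower on both KO arrays at 8.99, 8.59, 8.23 and 8.23, also chosen after its values were seen. C6, of the terminal membrane attack complex, was at 9.01, 8.82, 8.96 and 9.33.

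Among soluble regulators, Serping1, the C1 inhibitor, was at 11.70 on WT-LF, 12.19 on WT-HF, 11.46 on KO1 and 12.33 on KO2, in the order of Cfb. Cpn1, a carboxypeptidase N subunit that inactivates C3a and C5a, was at 6.21, 5.61, 4.72 and 5.79. Clu and Vtn, inhibitors of the terminal complex, went opposite ways between the diets, at 10.24 and 9.62 for Clu and 7.73 and 8.38 for Vtn on the low-fat and high-fat arrays, and were chosen after their values were seen. Of the membrane regulators Cd55, which speeds the decay of convertases, was at 8.98, 8.78, 8.47 and 8.62. Susd4 was at 6.33, 5.10, 5.48 and 5.61, highest on the WT-LF array as C4bp was. It was the 1 gene of the 25 at an unadjusted p under 0.05 for KO against WT-LF, with an adjusted p = 1 in limma. Since Susd4 passed the filter on low values through WT-LF, a high value there and a small p against that array were favoured for it.

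Around each complement gene the 3 tested genes nearest in pattern were found by the Euclidean distance over the 4 arrays between levels centred on each gene's own mean, as a description over 4 points. C3ar1 lay nearest to Cd200r1, at a distance of 0.054, Capg (0.098) and Tlr8 (0.103). C5ar1 lay nearest to Trp53i11 (0.098), Spi1 (0.099) and Zfand2a (0.104). Nearest to C1qb were Arhgap11a (0.022), Ccna2 (0.031) and Creg1 (0.042), and to C1qc Mlec (0.020), Bcat1 (0.034) and Rab29 (0.035). Nearest to C1qa were Mindy3 (0.015), Tm9sf3 (0.017) and Fkbp1b (0.020). Cfb lay nearest to Gpr141b (0.047), Hspa5 (0.057) and Cers4 (0.078), and Cfp to Adgre5 (0.0078), Rabl6 (0.011) and Nktr (0.013). C4bp lay nearest to an immunoglobulin kappa variable segment, at 0.238, followed by Spink2 at 0.913 and the epididymis marker Spag11a at 0.945. C4bp, Spink2 and Spag11a all passed the filter on low values through WT-LF, with Spink2 at 5.25 on WT-HF, 5.36 on KO1 and 4.97 on KO2. The search covered tested genes alone, so a high value on WT-LF was required of Spink2 and Spag11a. Their places are a description. Genes that span little have small distances to many others, so distances are not compared between these genes.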

How the data were processed

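The deposited table holds linear intensities, a single value for each probe set on each array. Per the submitters' processing notes the authors used RMA and R 2.15.0, and here log2 was taken with no further scaling. The array's genome build is not given in the sources used here. Of 35556 probe sets, 21218 had 1 symbol in the platform annotation, and for each gene the one with the highest mean was kept. Genes with a mean at or above the 40th percentile were tested across all genes by limma 3.58.1 (R 4.3.3), fitting group means, with two-sided p-values adjusted by Benjamini-Hochberg. Only the KO pair gave residual information (1 degree of freedom, beside 4.62 from the prior, whose SD was 0.28), and unreplicated WT arrays took their variance from it. The planned log2 test was kept although the deposited values were linear. The steps were tested on simulated data. Members, lists and tests were chosen with earlier results of these data known.

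Named genes were the listed ones, Cd1d1 and, per role, tested complement genes at least 2-fold apart in a comparison or highest in level, with others stated as chosen after their values were seen. Marker lists covered adipocytes, macrophages, dendritic cells, neutrophils, lymphocytes, fibroblasts, mesothelium, endothelium, smooth muscle, hepatocytes and epididymis. Promoter windows came from RefSeq, where 7 of the 9 listed genes matched by symbol, without C1qa and Cfb. Alternatives covered the filter, scaling, probe set rule, variance model, thresholds and each KO array left out. Figures were drawn with matplotlib 3.10.9.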

Additional observations from a re-analysis of the deposited data

How the results depend on the processing

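The wild type arrays have no replicate and the spread comes from the KO pair and limma's prior alone, so the number of arrays limits the precision. The count of 0 complement genes past the threshold held without a filter, with a filter at the 20th percentile, with centred or quantile-normalized arrays, with means over probe sets, with a variance trend and at an adjusted p of 0.1, in both limma comparisons. Lowest adjusted p-values were between 0.558 and 1 against the wild type low-fat array and between 0.988 and 1 against the high-fat array. Without 1 KO array, limma has no residual degrees of freedom and no test was made. The count by size against the wild type low-fat array, 1 gene on both KO arrays, was between 2 and 5 when a single KO array was kept. Between the diets the count of genes apart was 6 at 1.3-fold and 4 at 2-fold, and within the KO pair 8 and 4. Centring turned the sign of the difference between the KO mean and WT-LF in C1qa, to 0.071, in Cfp, to 0.051, and in Itgam, to 0.028. The cause was not tested. For Itgax that difference was between −0.72 and 2.28 over the KO arrays. No paired analysis was possible because the wild type arrays carry no replicate number and the groups share fewer than 2 numbers.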

Other observations

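Markers of other cells that fat can hold give further context for the complement values. Summed intensities of 8 adipocyte markers lay between 62868 and 64727 over the 4 arrays, and those of 6 endothelial markers between 3185 and 3338. The 6 dendritic cell markers summed to 579 on WT-LF, 639 on WT-HF, 504 on KO1 and 692 on KO2, and 2 of them were at least 1.5-fold higher on KO2 than on KO1. The 8 measured neutrophil markers summed to 240 on WT-LF, 260.0 on WT-HF, 436 on KO1 and 414 on KO2. The sums hide mixed directions: against WT-LF 6 of the 8 were higher on KO1 and 4 of the 8 on KO2, with a median of −0.040 there. The 7 measured lymphocyte markers summed to 445 on WT-LF, 373 on WT-HF, 333 on KO1 and 421 on KO2, and 5 of them were highest on WT-LF. Mesothelial markers did not share 1 order: 3 of 8 were highest on WT-LF, 1 on WT-HF, 2 on KO1 and 2 on KO2. No marker was listed at 0, and the part of these cells in the complement values was not tested.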
